A study of Mus musculus with 6 samples.

Results

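The genes described here are the mouse Zfp genes, which carry the name zinc finger protein and a number, taken by their place in the genome. Members were the rows of the deposited read count table whose symbol was Zfp followed by a number, without Zfp36 and its relatives, and whose mean over the 6 libraries was at least 2 CPM (reads of a gene scaled to the total of its library). Of 412 rows with such a name, 373 had at least 1 read and 294 reached that mean. These were 293 genes, because Zfp865 was listed under a pair of identifiers with equal counts and was counted once. All 293 were among the 13602 genes tested, out of 54232 listed. Members whose starts lay within 500 kb of the next were joined, which gave 16 clusters of at least 4 members with 139 genes in all, and 154 members outside them. At the edge of the rule, Zfp647, Zfp820 and Zfp72 were just inside with 2.01, 2.07 and 2.1 CPM, and Zfp286, Zfp422-ps and Zfp90 were just outside with 1.84, 1.77 and 1.74 CPM.

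The libraries hold total RNA of Treg cells (regulatory T cells, a class of CD4 T cell that restrains immune responses), isolated by their GFP signal from mouse spleen. There were 3 wild-type libraries (WT1 to WT3) and 3 libraries from conventional knockouts of BAF60b (KO1 to KO3), a subunit of the SWI/SNF chromatin remodelling complex that is encoded by Smarcd2. A conventional knockout affects every cell type of the animal, so the spleen around the Treg cells carried it too. Which exons were removed, the strain, the age and the sex of the animals, how GFP was linked to Treg cells, and whether libraries came from separate mice were not given in the sources used here.

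Most Zfp genes encode C2H2 zinc finger proteins, in which a row of fingers reads DNA and each finger contacts a few bases. Many also carry a KRAB domain at the start of the protein. KRAB recruits the corepressor TRIM28 (KAP1), which brings in SETDB1, heterochromatin protein HP1 and the NuRD complex and so lays down repressive histone methylation, often on transposable elements. The family grew by tandem duplication, which is why its genes stand in clusters on a few chromosomes. In these data 287 of the 293 members had at least 1 finger pattern in their longest reading frame in GENCODE M21 transcripts, with a median of 11 and at most 37 fingers. A KRAB pattern was found in 157 members. Both patterns were widened once after their matches were seen, and the narrower KRAB pattern matched 115 members.

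The sequences shown next lie before 4 of the genes whose RNA rose in the knockout, all in the cluster on chromosome 17 that the results turn on. They are the 250 bases upstream of the RefSeq start on build GRCm38.p6, written 5′ to 3′ on the strand of the gene, with capitals marking matches to any of 8 short motifs. The windows are chr17:21488738-21488987 (plus strand) for Zfp53, chr17:21535289-21535538 (plus strand) for Zfp52, chr17:21845760-21846009 (minus strand) for Zfp820 and chr17:22361401-22361650 (minus strand) for Zfp944.
Zfp53: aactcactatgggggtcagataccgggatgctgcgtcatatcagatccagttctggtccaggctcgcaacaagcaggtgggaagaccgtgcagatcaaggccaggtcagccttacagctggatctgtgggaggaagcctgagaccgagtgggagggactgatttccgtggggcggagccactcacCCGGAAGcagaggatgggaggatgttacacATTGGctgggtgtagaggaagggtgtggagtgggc
Zfp52: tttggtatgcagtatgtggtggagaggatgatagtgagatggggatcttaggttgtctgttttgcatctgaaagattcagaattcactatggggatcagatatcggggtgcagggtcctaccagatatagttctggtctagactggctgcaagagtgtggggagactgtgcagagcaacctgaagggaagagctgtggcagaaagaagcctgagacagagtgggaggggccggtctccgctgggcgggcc
Zfp820: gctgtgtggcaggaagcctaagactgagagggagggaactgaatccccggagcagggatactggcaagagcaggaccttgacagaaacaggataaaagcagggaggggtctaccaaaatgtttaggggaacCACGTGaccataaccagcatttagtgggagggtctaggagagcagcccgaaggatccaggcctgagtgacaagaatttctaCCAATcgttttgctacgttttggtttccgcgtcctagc
Zfp944: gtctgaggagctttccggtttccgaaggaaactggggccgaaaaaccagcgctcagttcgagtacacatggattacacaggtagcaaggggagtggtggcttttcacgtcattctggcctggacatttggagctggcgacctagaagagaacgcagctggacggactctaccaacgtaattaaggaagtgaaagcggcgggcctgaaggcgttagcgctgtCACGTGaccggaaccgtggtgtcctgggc
The motifs were searched on both strands, and the capitals do not overlap between motifs. They were NRF1 (GCGC, any 2 bases, GCGC), ETS (CCGGAAG), YY1 (AAGATGGCG), CRE (TGACGTCA), the CCAAT box (CCAAT), SP/KLF (CCCCGCCC), the E-box (CACGTG) and the TATA box (TATAAA). The list of motifs was chosen with the results known. Zfp53 had an ETS match beginning 65 bases and a CCAAT box 35 bases before the start. Zfp820 had an E-box at 119 and a CCAAT box at 38 bases, Zfp944 had an E-box at 29 bases, and these letters were not in the Zfp52 window. The windows of Zfp53 and Zfp52 aligned over 178 columns with 71.9% identical bases. The RefSeq starts of Zfp53 and Zfp52 lie 2268 and 19507 bases before the starts listed in the count table, while those of Zfp820 and Zfp944 are the same in both.

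The E-box recurred among neighbours in this cluster. RefSeq listed 21 promoter windows for 19 of the 21 cluster members, and 8 of the 21 held CACGTG, against 6.02% of 32817 promoter windows of the same length over all genes and 6.48% of the windows of all members. The 8 genes were Zfp820, Zfp942, Zfp943, Zfp947, Zfp994, Zfp944, Zfp758 and Zfp946, which stand next to each other along the chromosome with only Zfp995 between them. The 8 windows held 6 separate sites, because Zfp942 and Zfp943 point away from each other with starts 95 bases apart and share a site, as do Zfp944 and Zfp758 with starts 63 bases apart. The windows of the pairs were near-identical: 224 of 225 aligned bases were identical between the windows of Zfp942 and Zfp944, and 242 of 243 between those of Zfp943 and Zfp758. The log2 fold changes of these 4 genes, KO over WT, were 0.19 for Zfp942, 0.21 for Zfp943, 0.31 for Zfp944 and 0.16 for Zfp758. The median log2 fold change was 0.26 for the 8 cluster members with an E-box and 0.30 for the 11 members with a window and none, so the median was not higher with the motif. The 8 include Zfp820 (1.92) and Zfp947 (0.41), which reached the minimum of 2 CPM only through their KO libraries and so had to be higher there. For the other motifs, the CCAAT box was in 8 of the 21 windows (33.8% of all windows), SP/KLF in 5 (16.1%), ETS in 2 (6.9%) and NRF1 in 1 (4.97%), and YY1, CRE and TATA letters were in 0 of them.

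Total counts lay between 18167053 and 22502804 reads per library. Smarcd2 fell from 198.5 ± 6.25 CPM over the WT libraries to 58.2 ± 0.75 CPM over the KO libraries (SD, n = 3 each; log2 fold change -1.77, adjusted p = 6.77e-08), which follows the labels. The 6 Treg markers, Foxp3 and Cd4 among them, summed to between 4144.8 and 4293.7 CPM in WT and between 4356.1 and 4699.2 CPM in KO. Markers of other cells were lower. The 3 plasmacytoid dendritic markers summed to 68.6 to 93.7 CPM in WT and 65.4 to 78.7 CPM in KO, the 2 CD8 T cell markers to 11.3 to 15.1 and 12.8 to 13.5 CPM, the 3 NK cell markers to 2.22 to 3.01 and 0.884 to 1.96 CPM, and the 4 erythroid markers to 0.955 to 2.96 and 0.531 to 10.4 CPM. The 6 myeloid markers summed to 24.6 to 30.1 CPM in WT and 14.4 to 81.2 CPM in KO, the 3 plasma cell markers to 4.66 to 7.16 and 5.48 to 20.7 CPM, and the 5 B cell markers to 4.54 to 7.07 and 7.08 to 10.9 CPM, with no marker at 0 in every library. Their part in the Zfp differences was not tested. WT1 and KO2 stood apart, with 0 CPM of 4 Y-linked genes against 143.8 to 448.0 CPM in the other 4 libraries, so results are also given without these 2. KO3 had 0 CPM of Xist, and WT2, WT3 and KO1 had reads of both Xist and the Y-linked genes, so the mix of sexes differed between all libraries but WT1 and KO2. In bulk RNA, fewer cells that express a gene and less RNA of it per cell cannot be told apart.

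The members as a whole lay slightly higher in the knockout. The median log2 fold change over the 293 members was 0.06, against 0.00 over all genes tested, and 198 members (67.6%) were above 0, against 51.1% of all genes. Of the members, 9 rose and 2 fell (adjusted p under 0.05, edgeR quasi-likelihood test, adjusted by Benjamini-Hochberg across the 13602 genes), which is 3.75% of them, below the 6.45% of all genes called (3.25% higher and 3.2% lower). In 66 members (22.5%) every KO library was above every WT library, against 12.6% of all genes, and in 17 (5.8%) every KO library was below, against 13% of all genes. Most of these differences were small, and the SD of the log2 fold changes over the members was 0.20. Summed over all members, they reached 10328.0 ± 128.9 CPM per WT library and 10733.9 ± 97.2 CPM per KO library (SD, n = 3 each), a ratio of 1.04. Without WT1 and KO2 the median was also 0.06, and 4 members were called, all higher.

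**Figure D1:**
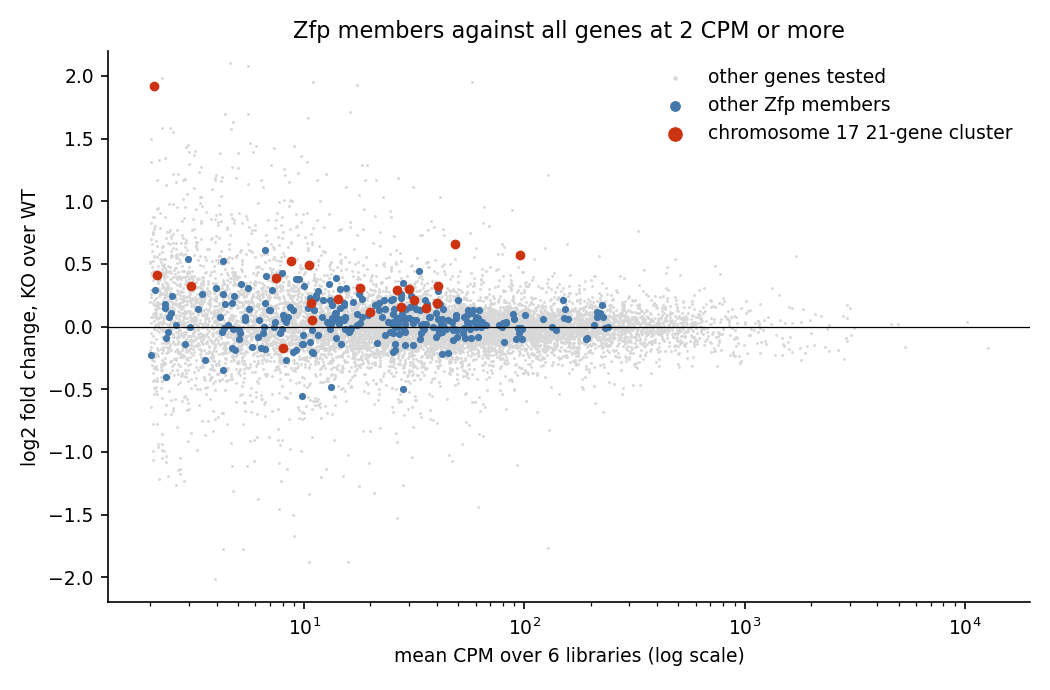
Log2 fold change (KO over WT) against mean CPM over the 6 libraries (log scale) for 11155 genes at 2 CPM or more (grey; 5 lie outside the plotted range of 2.2 on either side), the Zfp members (blue) and the 21 members of the chromosome 17 cluster (red). The red points lie above 0 but for Zfp213, over levels from 2.07 to 95.7 CPM.

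The members with a KRAB pattern had a median log2 fold change of 0.08, with 8 that rose and 0 that fell among 157 (5.1% called). The 136 without it had a median of 0.02, with 1 that rose and 2 that fell (2.21% called). Both shares were below the 6.45% of all genes. Outside the chromosome 17 cluster the medians were 0.07 for 137 members with the pattern and 0.03 for 135 without. With the narrower pattern they were 0.06 and 0.04 there, so the difference between these classes was small and moved with the pattern.

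The cluster at the start of chromosome 17, chr17:21008903-23564226 (mm10), held 5 of the 9 members that rose. It has 21 members, 12 on the plus and 9 on the minus strand, 20 of them with a KRAB pattern and with a median of 12 fingers. Their median log2 fold change was 0.30, 20 of 21 were above 0 and the highest median of the other 15 clusters was 0.12. Zfp51, Zfp52, Zfp53, Zfp820 and Zfp944 rose (23.8% called, against 6.45% of all genes), and no member fell. Zfp820 and Zfp947 reached the minimum of 2 CPM through their KO libraries, and without them the other 19 members had a median of 0.29, 4 called, 18 above 0 and 15 with every KO library above every WT library. In 16 of the 21 (76.2%) every KO library was above every WT library, against 12.6% of all genes. Every KO library was below every WT library in 0 of them, against 13% of all genes. Summed over the 21 members the level was 451.9, 437.7 and 409.0 CPM in WT1 to WT3 and 531.5, 557.4 and 560.4 CPM in KO1 to KO3. The groups did not overlap in this sum, which was 1.27 times as high in KO as in WT, and 1.18 times without Zfp52 and Zfp53. No test was made of the cluster as a whole, since members and clusters were chosen with results known.

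**Figure D2:**
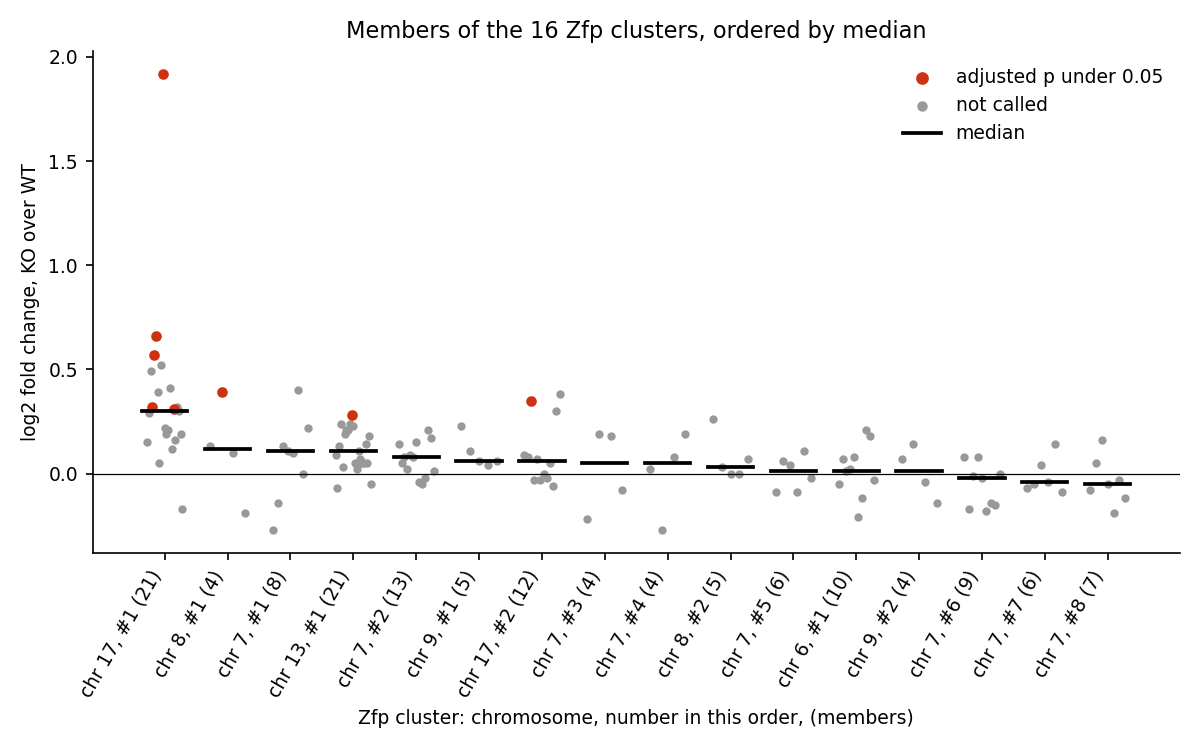
Log2 fold change (KO over WT) of each member of the 16 clusters, ordered by median (bars), with the number of members in brackets and called members in red. The chromosome 17 cluster at the left has the highest median (0.30) and 5 called members, and no other cluster has more than 1.

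Zfp53, a KRAB zinc finger gene with 16 finger patterns, had the lowest p of all members and the highest level of the cluster per kb of exon (31.2 CPM per kb, mean of the 6 libraries). Its levels were 81.2, 79.2 and 70.7 CPM in WT1 to WT3 and 112.7, 115.2 and 115.1 CPM in KO1 to KO3. The KO libraries lay close together and clear of every WT library. On the log2 scale the difference was 0.57 (SE 0.06, adjusted p = 0.00053), or 1.48-fold.

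Zfp52, the next member along the chromosome, has 14 finger patterns. Its levels were 39.0, 38.0 and 35.2 CPM in WT1 to WT3 and 55.3, 58.0 and 64.1 CPM in KO1 to KO3. Again every KO library was above every WT library, with KO3 the highest. The log2 fold change was 0.66 (SE 0.07, adjusted p = 0.000823), or 1.58-fold. In GENCODE M21, an exon of Zfp52 overlaps by 11 bases with 9330136K24Rik, a long noncoding RNA gene on the minus strand. The latter gene covers the RefSeq start of Zfp52. That RNA, named here after its values were seen, rose as well, from 5.18 ± 0.793 CPM per WT library to 8.33 ± 1.21 CPM per KO library (SD, n = 3 each; log2 fold change 0.68, adjusted p = 0.0335). In the coordinates of the count table the genes do not overlap, since Zfp52 starts at 21555046 and 9330136K24Rik ends at 21535878. The annotation and strand setting of the counting were not given, so whether reads of the overlap were counted is not known. Zfp53 and Zfp52 were the 2 of the 11 called members whose calls held under all 15 alternatives tried for single genes (log2 fold changes 0.51 to 0.60 and 0.60 to 0.71).

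Zfp51 lies just before Zfp53 and has 20 finger patterns, the most in the cluster. Its levels were 39.2, 35.1 and 33.9 CPM in WT1 to WT3 and 45.3, 41.9 and 47.7 CPM in KO1 to KO3. The groups did not overlap, but KO2 and WT1 were near each other. The log2 fold change came to 0.32 (SE 0.08, adjusted p = 0.0339). The call was lost without WT1 (adjusted p = 0.0507), WT2 (0.152), WT3 (0.126), KO1 (0.0809) or KO3 (0.0823), or when male share entered the fit (0.0536).

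Zfp944, on the minus strand beside Zfp758, has 11 finger patterns. Its levels were 16.4, 16.4 and 15.1 CPM in WT1 to WT3 and 19.9, 19.6 and 20.0 CPM in KO1 to KO3. Each group was tight and the groups did not overlap. The log2 fold change came to 0.31 (SE 0.08, adjusted p = 0.0402). The call was lost without any 1 of the 6 libraries, WT1 (adjusted p = 0.117), WT2 (0.107), WT3 (0.133), KO1 (0.0932), KO2 (0.0788) and KO3 (0.0968), while the log2 fold change stayed between 0.27 and 0.33. It was also lost with DESeq2 (0.0845), no filter (0.0513) or the male share as a covariate (0.0575), and without WT1 and KO2 together (0.187).

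Zfp820 had the lowest level of the cluster, 0.557 CPM per kb. It was a member only through its KO libraries, so it had to be higher there, and its rank among members is no result. Its counts were 14, 23 and 14 reads in WT1 to WT3 (0.767, 1.10 and 0.706 CPM) and 30, 90 and 84 reads in KO1 to KO3 (1.51, 4.58 and 3.71 CPM). KO1 lay nearer to the WT libraries than to KO2 and KO3, though no KO library overlapped with WT. The log2 fold change was 1.92 (SE 0.41, adjusted p = 0.0215). The call was lost without WT1 (adjusted p = 0.107), WT2 (0.0687), WT3 (0.0882) or KO2 (0.0542), with limma-voom (0.0654), and without WT1 and KO2 together (0.203).

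**Figure D3:**
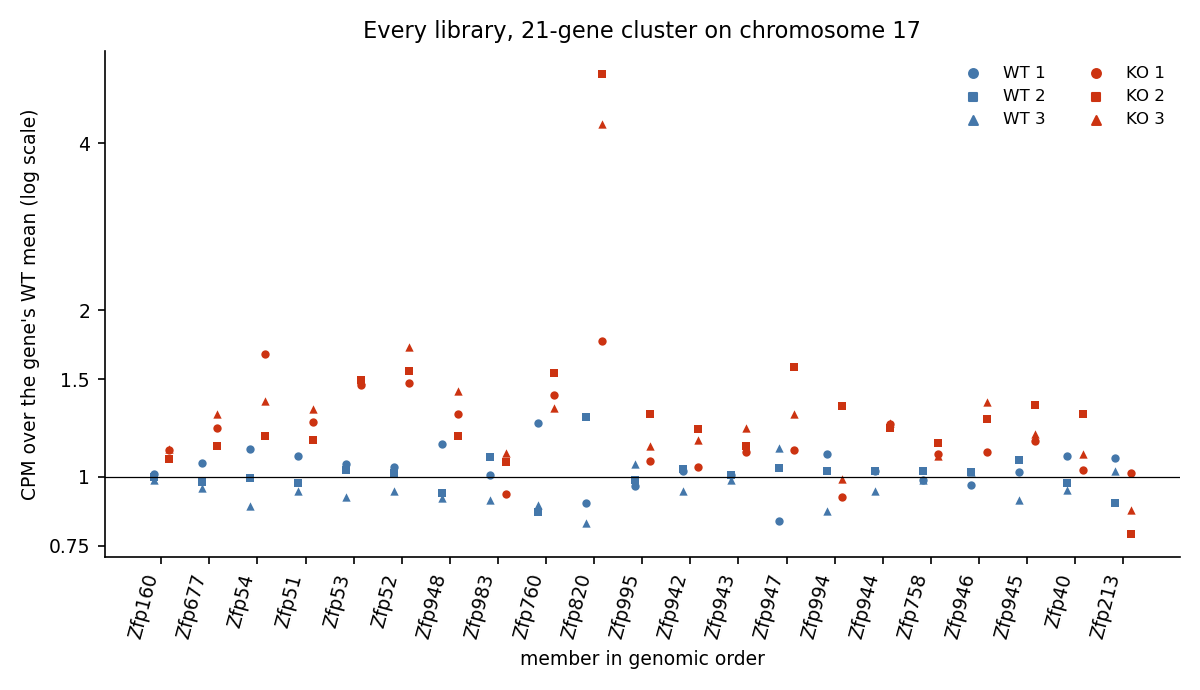
CPM of each member of the 21-gene chromosome 17 cluster over the gene's own WT mean (log scale), by library, in genomic order. The KO libraries (red) lie above the WT libraries (blue) in 16 members.

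The other 16 members of the cluster did not pass the test, but mostly lay on the same side. Their median log2 fold change was 0.22 and in 11 of them every KO library was above every WT library, against 12.6% of all genes. Zfp947, a member only through its KO libraries, is among the 16. Between Zfp677 and Zfp948, a run picked after its values were seen, all 6 members had KO above WT without overlap, with log2 fold changes from 0.29 to 0.66. Within that run, Zfp54 was at 9.76, 8.64 and 7.71 CPM in WT1 to WT3 and 14.5, 10.3 and 11.9 CPM in KO1 to KO3 (log2 fold change 0.49, SE 0.14, adjusted p = 0.079), and an exon of it overlaps a gene on the other strand. Zfp677 was at 25.3, 23.4 and 22.8 CPM in WT1 to WT3 and 29.3, 27.2 and 31.0 CPM in KO1 to KO3 (log2 fold change 0.29, SE 0.08, adjusted p = 0.0554). In both genes the lowest KO library, KO2, stood close to WT1, the highest WT library. Further along, Zfp760 was at 8.99, 6.21 and 6.40 CPM in WT1 to WT3 and 10.1, 11.1 and 9.60 CPM in KO1 to KO3 (log2 fold change 0.52, SE 0.15, adjusted p = 0.0809), and Zfp945 was 0.30 higher on the log2 scale (SE 0.09, adjusted p = 0.0723). Zfp677, Zfp54, Zfp760 and Zfp945 were chosen after their values were seen. These 4 were called under at least 1 alternative each.

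Of the 5 members whose groups were not separated, 3 are given here, all in the stretch from Zfp983 on, where the median log2 fold change was 0.22 over 14 members against 0.39 over the 7 before it, a split chosen after seeing the values. Zfp983 was at 10.8, 11.6 and 9.73 CPM in WT1 to WT3 and 9.95, 11.4 and 11.8 CPM in KO1 to KO3 (log2 fold change 0.05, SE 0.11). Zfp994 was at 20.9, 19.5 and 16.5 CPM in WT1 to WT3 and 17.5, 25.5 and 18.8 CPM in KO1 to KO3 (log2 fold change 0.12, SE 0.14). In both genes the groups overlapped. Zfp213, the last member of the cluster and the one without a KRAB pattern, had 5 finger patterns and was the only member below 0, with -0.17 on the log2 scale (SE 0.13, adjusted p = 0.552). These 3 were named after their values were seen. By strand, the median log2 fold change was 0.32 for the 12 members on the plus strand and 0.22 for the 9 on the minus strand. Zfp820 and Zfp947, members only through their KO libraries, are among these 9 and among the 14 from Zfp983 on.

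**Figure D4:**
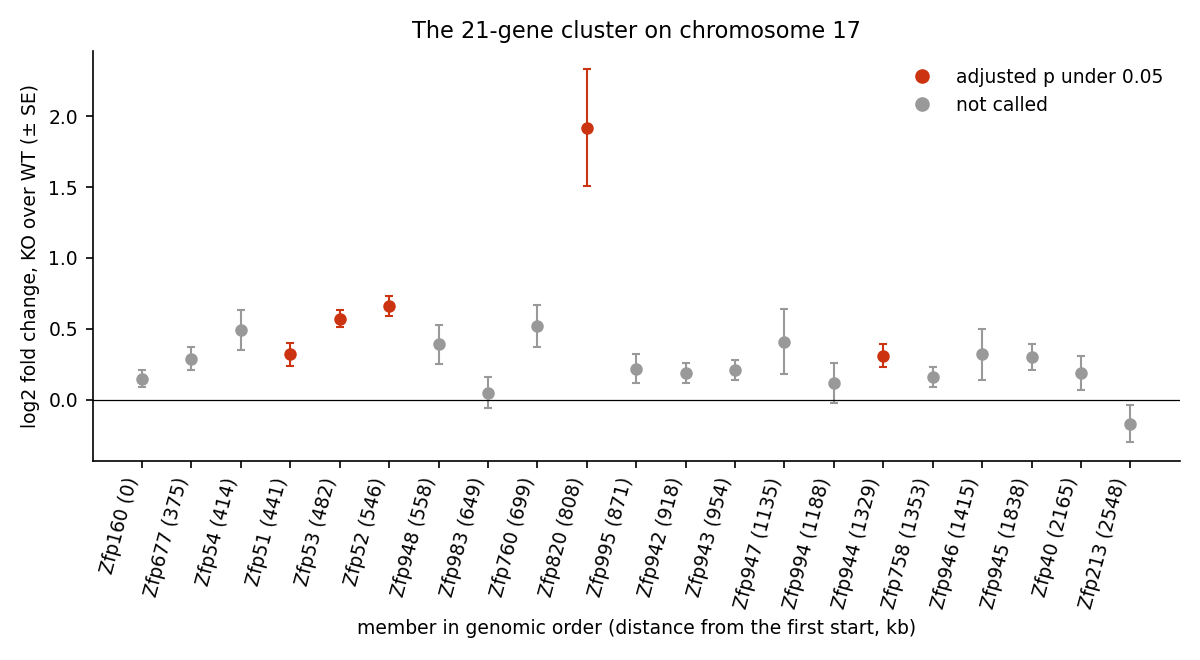
Log2 fold change (KO over WT) with its SE for the 21 members of the chromosome 17 cluster in genomic order, with the distance of each start from that of Zfp160 in kb. Called members are red, and only Zfp213, the last, is below 0.

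The 35 tested genes within 1 Mb of the cluster had a median log2 fold change near 0, at -0.05, with 1 called (2.86%, against 6.45% of all genes). Of the 35, only Ppp2r1a lies before the cluster, and the others lie beyond Zfp213, its last member. The 6 other tested genes between the members had a median of 0.09, with 4 above 0. Of these 6, 1 was called, 9330136K24Rik (16.7%, against 6.45% of all genes). In 2 of the 6 (33.3%) every KO library was above every WT library, against 12.6% of all genes. The 6 include Zfp229, a Zfp gene below 2 CPM that is given at the end. All 689 tested genes of chromosome 17 had a median of 0.00, with 6.53% called, and the 7 members on chromosome 17 outside any cluster had a median of -0.00. Library by library, the median deviation of the cluster members from their own WT mean (log2) was 0.04, 0.02 and -0.09 in WT1 to WT3. It was 0.16, 0.29 and 0.31 in KO1 to KO3. KO1 was thus nearer to WT than KO2 and KO3, and the groups did not overlap. Without WT1 and KO2, the libraries with no Y-linked reads, the median log2 fold change was 0.24, 20 of 21 members were above 0, 17 did not overlap (22.7% of all genes did so with KO above WT in that subset) and Zfp51, Zfp52 and Zfp53 were called. A median of 99.6% of the 75-base words in the members' transcripts occurred in no other gene, and the lowest share was 90.3%, in Zfp994. The part of reads shared between copies in these differences was not tested.

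Chromosome 17 holds a 12-member cluster of its own kind further along, chr17:32771236-33631779. Its median log2 fold change was 0.06 and its library medians overlapped between the groups. Zfp870, with 10 finger patterns and a KRAB pattern, rose: its levels were 26, 24.4 and 23.3 CPM in WT1 to WT3 and 32.3, 31.7 and 30.2 CPM in KO1 to KO3. No library of either group reached the other group. The log2 fold change was 0.35 (SE 0.07, adjusted p = 0.0167), and the call was lost without WT2 (0.0787), WT3 (0.0654) or KO1 (0.0549), and without WT1 and KO2 together (0.0817). Exons of Zfp870 overlap by 438 bases with a gene on the opposite strand. Zfp414 was 0.38 higher in KO on the log2 scale (SE 0.12, adjusted p = 0.0913). Zfp871, the member with the highest CPM of this cluster, was 0.09 higher (SE 0.05). The median of the cluster was -0.03 without WT3 and 0.00 without the 3 members whose exons overlap a gene on the opposite strand.

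The chromosome 13 cluster, chr13:67038596-67827002, is as large as the leading one, with 21 members, 20 of them with a KRAB pattern. Its median log2 fold change was 0.11, with 19 of 21 above 0. In 6 (28.6%) every KO library was above every WT library, against 12.6% of all genes. Its library medians overlapped between the groups. Zfp874a rose, from 35.7, 38.9 and 35.0 CPM in WT1 to WT3 to 43.0, 44.4 and 45.7 CPM in KO1 to KO3. Its log2 fold change was 0.28 (SE 0.06, adjusted p = 0.0301). The call was lost without WT1 (adjusted p = 0.139), WT2 (0.0548), WT3 (0.11), KO2 (0.0637) or KO3 (0.0716), and without WT1 and KO2 together (0.208). Zfp729a, at the highest CPM of this cluster, had a log2 fold change of 0.05 (SE 0.06). Counts of this cluster are less certain, since the lowest share of unique words in a member was 55.2% and 8 members overlap exons of the opposite strand.

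A 4-member cluster on chromosome 8, chr8:71882019-71993792, held members on both sides of 0 and had a median of 0.12. Zfp882 rose, from 11.6, 12.2 and 12.3 CPM in WT1 to WT3 to 14.4, 16.5 and 16.3 CPM in KO1 to KO3. Its log2 fold change was 0.39 (SE 0.09, adjusted p = 0.036). Its neighbour Zfp961 went the other way without passing the test, from 27.7, 25.7 and 29.1 CPM to 24.4, 24.2 and 23.9 CPM (log2 fold change -0.19, SE 0.07, adjusted p = 0.176). In both genes the groups did not overlap. The call of Zfp882 was lost without WT1 (0.149), WT2 (0.115), WT3 (0.0862), KO2 (0.0983) or KO3 (0.0876), with DESeq2 (0.0516) or the male share as a covariate (0.0502), and without WT1 and KO2 together (0.271). Its exons overlap those of Zfp617 on the same strand.

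In the other 12 clusters, with 81 members, 0 were called by edgeR's quasi-likelihood test, by DESeq2 or by limma-voom. These tests called 6.45%, 7.43% and 6.4% of all genes. Of the 81, 11 had an unadjusted p under 0.05 by edgeR's test, a smaller share than the 20.4% of all genes tested. Library medians in the 8-member and the 13-member cluster of chromosome 7, starting at 27.7 and 29.8 Mb, were above WT in every KO library, as in the leading cluster, but by less: the medians were 0.11 and 0.08. In the former, Zfp974, Zfp850 and Zfp626 had log2 fold changes of 0.40 (SE 0.16), 0.22 (SE 0.08) and 0.13 (SE 0.07). In all 3 (37.5% of its 8 members) every KO library was above every WT library, against 12.6% of all genes. In the latter, Zfp260, a gene at 149.5 CPM on average, had 0.21 (SE 0.07, adjusted p = 0.114). On chromosome 9, the cluster from 20.3 Mb had all 5 members above 0 with a median of 0.06, led by Zfp560 at 0.23 (SE 0.12), while its most abundant member by CPM, Zfp266, had 0.04 (SE 0.06). The cluster from 22.1 Mb had a median of 0.01, with Zfp809, known for silencing retroviral elements, at 0.14 (SE 0.06) and Zfp810 at -0.14 (SE 0.09). Neither passed the test. Every KO library was above every WT library for Zfp809 (as for 12.6% of all genes) and below for Zfp810 (as for 13% of all genes).

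The 10 members on chromosome 6, from 47.8 Mb, had 0 with a KRAB pattern, as had the 4 on chromosome 7 from 4.9 Mb, and a median of 5.5 fingers. Their median log2 fold change was 0.01. Zfp467 and Zfp746 were at 0.21 (SE 0.07, adjusted p = 0.0964) and -0.12 (SE 0.04, adjusted p = 0.179), in each case with no overlap between groups. On chromosome 8 from 69.2 Mb, the median was 0.03, with Zfp930 at 0.26 (SE 0.09, adjusted p = 0.126) and Zfp869 at -0.00. The remaining clusters of chromosome 7 had medians between -0.05 and 0.05. In them Zfp628 was at -0.22 (SE 0.07), Zfp865 at -0.08 (SE 0.05), Zfp773 at -0.27 (SE 0.12) and Zfp954 at 0.02 (SE 0.07). Zfp180 was at -0.09 (SE 0.07), Zfp61 at 0.11 (SE 0.09), Zfp689 at -0.18 (SE 0.13), Zfp668 at -0.15 (SE 0.08) and Zfp646, at 238.7 CPM the most abundant member by CPM, at 0.00 (SE 0.05). Zfp787, Zfp444 and Zfp78 were at -0.07, -0.05 and 0.14, and Zfp329, Zfp110 and Zfp128 at 0.16, -0.05 and -0.19, all within 2 SE of 0. None of these genes passed the test.

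Outside clusters, 154 members had a median log2 fold change of 0.04, with 1 that rose and 2 that fell. This is 1.95% called, below the 6.45% of all genes. Zfp608, a zinc finger gene of chromosome 18, rose from 26.9, 28.4 and 29.3 CPM in WT1 to WT3 to 39.4, 35.1 and 40.5 CPM in KO1 to KO3 (log2 fold change 0.44, SE 0.08, adjusted p = 0.00827). Its groups were well apart, and its call was lost without WT1 (adjusted p = 0.0521) alone. Exons of Zfp608 overlap by 79 bases with a gene on the opposite strand.

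The 2 members that fell carry no KRAB pattern and stand alone. Zfp523 fell from 16.6, 15.3 and 14.7 CPM in WT1 to WT3 to 10.7, 11.6 and 11.0 CPM in KO1 to KO3 (log2 fold change -0.48, SE 0.09, adjusted p = 0.0132). It lies on chromosome 17 between the clusters described above, and its exons overlap by 554 bases with a gene on the opposite strand. Zfp827 of chromosome 8 fell from 34.5, 33.9 and 30.8 CPM in WT1 to WT3 to 27.0, 20.4 and 22.6 CPM in KO1 to KO3 (log2 fold change -0.50, SE 0.10, adjusted p = 0.0177). In both genes every KO library was below every WT library. Without WT1 or WT2 the adjusted p was 0.068 or 0.0546 for Zfp523 and 0.0819 or 0.0809 for Zfp827, and without WT1 and KO2 together it was 0.105 for Zfp523 and 0.139 for Zfp827. Among the most abundant members by CPM, Zfp281, Zfp207, Zfp292 and Zfp831 had log2 fold changes of 0.08, 0.11, -0.01 and 0.17. Zfp831 was the closest of these to the threshold, with every KO library above every WT library and an adjusted p of 0.058.

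The partners through which KRAB proteins repress were measured from a list of 33 genes, 32 of them tested. Their median log2 fold change was 0.01, with 1 that rose and 0 that fell. This is 3.12% called, below the 6.45% of all genes. Trim28, the corepressor that binds KRAB, averaged 254.0 ± 9.09 CPM over the WT libraries and 237.6 ± 13.8 CPM over the KO libraries (SD, n = 3 each; log2 fold change -0.10, adjusted p = 0.376). Setdb1, the histone methyltransferase it recruits, averaged 90.1 ± 5.87 CPM over the WT libraries and 92.3 ± 1.71 CPM over the KO libraries (log2 fold change 0.04, adjusted p = 0.784). Chd3, an ATPase of the NuRD complex, rose from 1304.0, 1348.6 and 1253.4 CPM in WT1 to WT3 to 1521.1, 1459.3 and 1680.6 CPM in KO1 to KO3 (log2 fold change 0.25, SE 0.06, adjusted p = 0.0365). Its groups did not overlap. With 1 library left out, 2 genes of the list were called without KO2, and 0 without any other.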

How the data were processed

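RNA of GFP-positive splenic Treg cells was sequenced in 6 mouse libraries, 3 WT and 3 KO for BAF60b. The deposited table holds raw counts per gene and library as whole numbers, judged from the values. Per the submitters' processing notes the build was mm10, and the tools were DESeq2 1.34.0, HISAT2 2.1.0, fastp 0.23.2 and Picard. What each tool did, how reads were counted and with which strand setting and annotation, and whether duplicates were removed was not given in the sources used here. Separate mice are not stated for the libraries, and the p-values then reflect only how these libraries vary, which may be technical.

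Members, gene lists, motifs and comparisons were chosen with earlier results of these data known. Membership used raw counts over the library total (CPM), and 13602 genes kept by filterByExpr (minimum count 10, minimum total 15) were tested. Printed CPM are scaled by TMM. Genotype was tested with edgeR 4.0.16 (quasi-likelihood F test, R 4.3.3) without a block, with Benjamini-Hochberg adjustment over all tested genes, at 0.05. Steps were tested on simulated data. The smallest p of an exact permutation test for a single gene would be 0.1 with 3 libraries per genotype. A count of 0 allows up to 3 reads, 0.133 to 0.165 CPM in a library, for counting error only.

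Named genes are Smarcd2, all called members, in each cluster the member with the smallest p, the largest absolute log2 fold change and the highest CPM, the 5 members with the highest CPM, and Trim28, Setdb1 and called genes of the corepressor list; others are said to be named after their values were seen. Symbols listed under several identifiers with equal counts were counted once. Exon overlaps, exon lengths, finger and KRAB patterns and 75-base words came from GENCODE M21, which held all 293 members, 276 of which had equal coordinates there. RefSeq promoters (GRCm38.p6) matched 245 members. Local alignments scored 1 for a match and penalised mismatches and gaps. Alternatives were scaling by RLE, by upper quartiles or by library size, no filter, DESeq2 1.42.0, limma-voom (limma 3.58.1), the replicate block, the share of male cells as a covariate, each library left out, an adjusted p under 0.1, a member minimum of 1 or 5 CPM, gaps of 250 or 1000 kb and members without opposite-strand exon overlap. The fit without the libraries lacking Y-linked reads, the duplicate rule and the widened patterns were chosen after seeing the data.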

Additional observations from a re-analysis of the deposited data

How the results depend on the processing

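The median log2 fold change of the chromosome 17 cluster from 21 Mb lay between 0.24 and 0.32 over all alternatives. Of its members, between 2 and 8 were called at an adjusted p under 0.05 over the alternative fits. Deviations from the group means had r of -0.17, -0.02 and 0.17 between WT and KO libraries of the same number. Between libraries of different numbers r was -0.23 to 0.25. With so few libraries these values cannot show whether the numbers pair them. With the replicate number as a block, 8 members, 738 genes and 0 corepressor genes were called. The calls of Zfp874a (adjusted p = 0.0549), Zfp882 (0.0542) and Zfp944 (0.0788) were then lost, and the cluster's median was 0.31. The number of members called was 17 without a filter, 25 at an adjusted p under 0.1, 4 without WT1 and KO2, and 3 to 11 with 1 library left out. All genes called numbered 1624 without a filter, 1355 at an adjusted p under 0.1, 186 without WT1 and KO2, and 344 to 848 with 1 library left out; the cause was not tested, but leaving out libraries leaves fewer samples. In the corepressor list 2 genes were called with upper-quartile scaling, library size, no filter or DESeq2, 0 with the male share as a covariate or without WT1 and KO2, and 0 to 2 with 1 library left out. Without a filter 1 Zkscan or Zscan gene was called.

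Among cluster medians, that of chromosome 17 from 32.8 Mb was 0.00 without members that overlap the opposite strand, and -0.03 to 0.10 with 1 library left out. On chromosome 7, the cluster from 12.4 Mb had 0.06 without WT1 and KO2, that from 29.8 Mb 0.05 without overlapping members, that from 4.9 Mb -0.08 at a minimum of 1 CPM, and that from 7.1 Mb -0.01 when joined within 1000 kb. On chromosome 8, the cluster from 69.2 Mb had 0.09 with the male covariate. With 1 library left out, medians ranged on chromosome 7 from -0.06 to 0.10 (4.9 Mb), -0.07 to 0.02 (6.1 Mb), -0.04 to 0.07 (24.1 Mb), 0.05 to 0.13 (27.7 Mb) and 0.03 to 0.09 (29.8 Mb), on chromosome 8 from 0.01 to 0.08 (69.2 Mb) and on chromosome 9 from -0.09 to 0.06 (22.1 Mb). Of 35 members named by the rule and not called, Zfp260, Zfp414, Zfp628 and Zfp831 were called at 0.05 under at least 1 alternative fit, and Zfp414, Zfp467 and Zfp831 passed an adjusted p under 0.1. No value of a called gene changed sign. Depth limits the genes of few reads, such as Zfp820.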

Other observations

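C2H2 genes named Zkscan or Zscan, which share the fingers and often the KRAB domain with the Zfp genes, were measured in the same libraries. Of these, 19 were tested, with a median log2 fold change of -0.03. By edgeR's quasi-likelihood test 0 were called at an adjusted p under 0.05 and 2 had an unadjusted p under 0.05, against 6.45% and 20.4% of all genes tested. DESeq2 and limma-voom also called 0 of them.

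Among members of a mean of 2 to 10 CPM, the median log2 fold change was 0.06 (79 members), against 0.05 over 2498 tested genes in that range. Among members of 10 to 30 CPM it was 0.07 (102 members), against -0.01 over 2605 genes. At 30 CPM or more it was 0.04 (112 members), against -0.01 over 6052 genes. Genes of low level in general thus also had a median above 0. These differences were not tested.

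Zfp229 lies inside the chromosome 17 cluster but was below 2 CPM and so no member. It was named after its values were seen. Its levels were 0.767, 1.24 and 0.706 CPM in WT1 to WT3 and 1.36, 1.73 and 1.59 CPM in KO1 to KO3, with no overlap between the groups (log2 fold change 0.77, SE 0.30, unadjusted p = 0.0292).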
